A study of Drosophila melanogaster with 9 samples.

Results

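The Hsp60 genes of Drosophila melanogaster were taken as the probe sets whose only gene symbol starts with Hsp60, and their signals were read in adult testes of 3 genotypes. The rule gave 4 probe sets, 1 for each of 4 genes, out of 14010 probe sets on the array and 10844 genes with a probe set. They were Hsp60A (probe set 141664_at, CG12101) on chromosome X, and Hsp60B (152031_at, CG2830), Hsp60C (145838_at, CG7235) and Hsp60D (146340_at, CG16954) on chromosome arm 2L. All 4 passed the filter on dim probe sets, and whether a probe set also reads the transcript of another Hsp60 gene was not tested. Gene coordinates are not given here because the sources used here name no genome build.

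The 9 arrays came from 3 genotypes with 3 arrays each. The arrays labelled comr held testes of comr[z1340] cn bw males. The can arrays held testes of w ; can[3] red e males, and the control arrays those of red e males, whose testes are normal per the labels and whose marked chromosome is the parent of the can[3] chromosome. In all groups the males were 0 to 1 day old and reared at 25 °C, and testes were dissected by hand with accessory glands and ejaculatory ducts removed, then pooled until enough had been collected. Of the arrays labelled comr, 2 label fields (title and genotype) give comr, whereas 2 others (source name and description) give aly. In that group the mutation and the strain markers (cn and bw in place of red and e) cannot be told apart. In the can arrays can[3] and w, which the control genotype does not name, likewise cannot be told apart. Nothing in the labels says whether replicate arrays hold separate dissections, so p-values measure the spread between arrays, which may be technical.

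Hsp60 proteins are chaperonins of the GroEL type. They form a barrel in the mitochondrial matrix, closed by a lid of the co-chaperonin Hsp10, in which imported proteins fold. Hsp60A is the general and essential Drosophila gene, Hsp60B is required for the step at which syncytial spermatids separate into single sperm, Hsp60C is required in the tracheal system and for male fertility, and Hsp60D has been linked to caspase-dependent cell death. The products of comr and can act in primary spermatocytes, comr within the testis meiotic arrest complex (tMAC) and can as a testis homologue of a general transcription factor TAF. Males lacking either accumulate spermatocytes and make no spermatids.

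Hsp60B, Hsp60C and Hsp60D fell in both mutant genotypes, and Hsp60A did not. The falls of Hsp60B and Hsp60D were deeper in testes labelled comr, where both signals lay at or under the background floor, than in can testes, where 16.7% and 15.8% of the control mean was left. Of the 3, Hsp60C kept the largest share of its control signal in each mutant, and Hsp60A was brighter in both mutants than in control in the values as deposited, by less than 2-fold, and dimmer with ribosomal protein centring. A probe set was called changed at an adjusted p under 0.05 and a change of at least 2-fold, from limma over all 9775 tested probe sets on the scale log2 of signal plus 16. The floor was a signal of 20.3, the highest among 23 control probe sets with no added target. Less RNA per cell and fewer cells of a type cannot be told apart in these whole-organ samples.

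**Figure D1:**
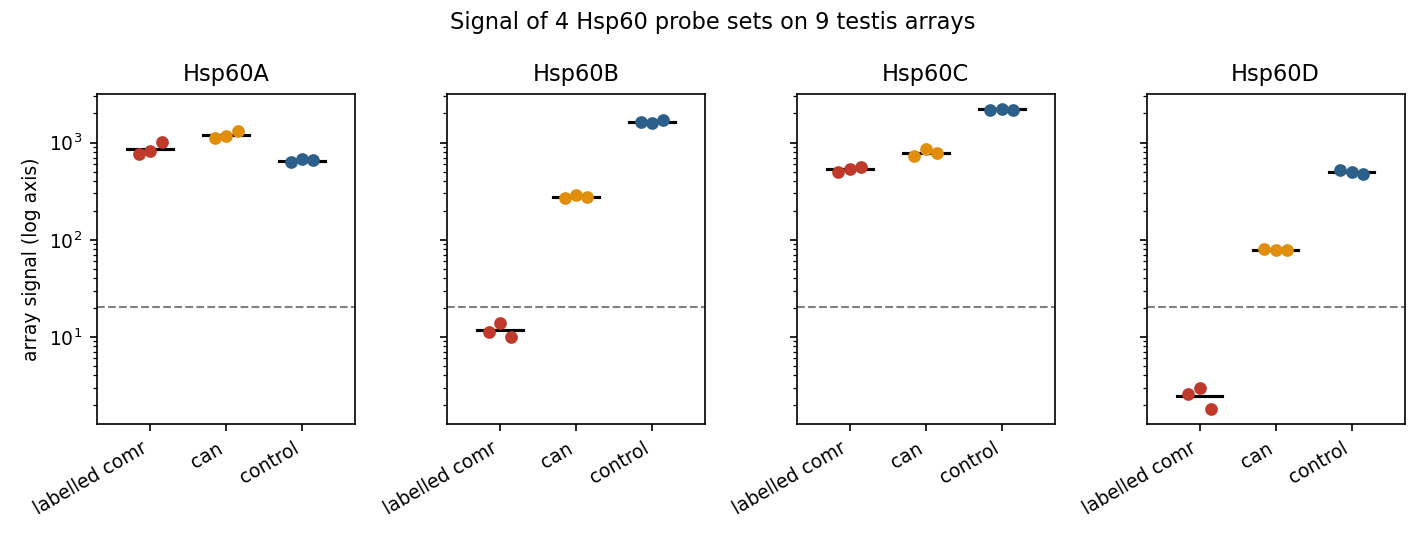
Signal of the 4 Hsp60 probe sets (log axis, array units) on each of 9 testis arrays, with labelled comr arrays at the left, can arrays in the middle and control arrays at the right of each panel. Points are arrays, short bars are group means (n = 3) and the dashed line is the floor at 20.3. Hsp60B and Hsp60D lie below the floor on the arrays labelled comr and above it on all others, and Hsp60A has its lowest signals as deposited in control.

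Hsp60A had signals of 765.3, 816.4 and 1015.5 on arrays labelled comr, 1127.1, 1159.4 and 1319.7 on can arrays, and 626.9, 672.7 and 659.9 on control arrays. The order of the groups was control, labelled comr and can, and no neighbouring groups overlapped. The means were 866 ± 132, 1202 ± 103 and 653 ± 23.6 (SD, n = 3 each), so that testes labelled comr stood at 133% and can testes at 184% of the control mean. Neither difference reached 2-fold. The log2 change was 0.39 (SE 0.10, adjusted p = 0.00349) in testes labelled comr and 0.86 (SE 0.10, adjusted p = 7.06e-06) in can testes. The sign of both depended on the scaling of the arrays: with each array centred on ribosomal protein probe sets the log2 changes were -0.62 and -0.37, and with quantile normalisation the change in can testes was 1.07 and was called. Between the mutants, the log2 difference of testes labelled comr from can testes was -0.47 (SE 0.10, adjusted p = 0.00189), under 2-fold. It did not pass the p threshold with ribosomal protein centring (-0.25, adjusted p = 0.0735). The same held with each array centred on spiked control probe sets (-0.22, adjusted p = 0.286).

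Hsp60B had signals of 11.3, 13.8 and 10 on arrays labelled comr, 271.3, 286.3 and 272.6 on can arrays, and 1651.4, 1606.8 and 1702.1 on control arrays. The 3 groups lay far apart, with every array labelled comr under the floor. The means were 11.7 ± 1.93, 277 ± 8.31 and 1653 ± 47.7 (SD, n = 3 each). Set against the floor, Hsp60B was at least 81.4-fold lower in testes labelled comr than in control (adjusted p = 3.97e-14). For this bound the floor stands in for the dimmer group, since a signal under the floor measures no level, and the brighter group enters as its geometric mean. In can testes 16.7% of the control mean was left, with arrays between 16.4% and 17.3%, and the log2 change was -2.51 (SE 0.080, adjusted p = 1.30e-10). Hsp60B was at least 13.6-fold lower in testes labelled comr than in can testes (adjusted p = 1.25e-11). A further probe set with 2 gene symbols, 1 of them Hsp60B, fell less. It averaged 37.7 in testes labelled comr and 102.5 in control (log2 change -1.14), and which of the 2 genes it reads was not tested.

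Hsp60C had signals of 495.1, 533.4 and 567.9 on arrays labelled comr, 722.1, 859.3 and 783.8 on can arrays, and 2189.4, 2249.6 and 2176.2 on control arrays. All arrays were well above the floor, and no groups overlapped. The means were 532 ± 36.4, 788 ± 68.7 and 2205 ± 39.1 (SD, n = 3 each). Testes labelled comr held 24.1% of the control mean (arrays between 22.5% and 25.8%), and the log2 change was -2.02 (SE 0.077, adjusted p = 1.20e-10). Can testes held 35.8% of it (arrays between 32.7% and 39.0%), with a log2 change of -1.47 (SE 0.077, adjusted p = 4.92e-09). The mutants differed by less than 2-fold: testes labelled comr stood 0.55 lower than can testes on the log2 scale (difference -0.55, SE 0.077, adjusted p = 7.52e-05). As deposited this passed the p threshold and not the fold minimum. With arrays centred on spiked control probe sets it was -0.30 (adjusted p = 0.119) and passed neither.

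Hsp60D had signals of 2.6, 3 and 1.8 on arrays labelled comr, 79.9, 78.3 and 79 on can arrays, and 522.9, 500.9 and 473.5 on control arrays. As for Hsp60B, each array labelled comr was under the floor and the can arrays stood between the other groups. The means were 2.47 ± 0.611, 79.1 ± 0.802 and 499 ± 24.7 (SD, n = 3 each). Hsp60D was at least 24.6-fold lower in testes labelled comr than in control (adjusted p = 3.70e-13) and at least 3.89-fold lower than in can testes (adjusted p = 7.49e-10). Such bounds depend on how bright the control and can signals are, so those of Hsp60B and Hsp60D cannot be ranked. In can testes 15.8% of the control mean was left (arrays between 15.69% and 16.01%), with a log2 change of -2.44 (SE 0.094, adjusted p = 4.49e-10). The fitted log2 changes of this dim probe set moved with the offset: in testes labelled comr against can testes they ran between -4.55 at an offset of 1 and -1.11 at an offset of 64, with the call kept at both.

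Counted against the background of all probe sets, 3 of the 4 Hsp60 genes were called lower in testes labelled comr, where 16.7% of tested probe sets were called lower and 45.6% were called in either direction. In can testes the same count was 3 of 4, where 13.1% were called lower and 33.8% in either direction. Between testes labelled comr and can testes 2 of 4 were called lower, Hsp60B and Hsp60D, where 10.3% were called lower, 4.54% higher and 14.8% in either direction. The arrays did not overlap for 4 of 4 genes in each comparison, and the share of all tested probe sets without overlap was 80.8%, 72.7% and 59.1% in the same order of comparisons. Non-overlap was thus common on these arrays. Both comparisons with control use the same 3 control arrays.

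The place of each gene in the full distribution of changes differed. In testes labelled comr, 10.9% of tested probe sets had a log2 change as low as that of Hsp60C or lower, and 51.3% one as low as that of Hsp60A. Hsp60B and Hsp60D, under the floor there, have no measured place. Hsp60A thus sat near the middle of all probe sets there, and its change exceeded the median of all tested probe sets by 0.04. In can testes the shares were 3.32% for Hsp60B, 3.63% for Hsp60D, 9.13% for Hsp60C and 74.4% for Hsp60A, whose change exceeded the median by 0.57. Between the mutants the shares were 17.1% for Hsp60C and 19.6% for Hsp60A. A fall below the floor in testes labelled comr was shared by 1047 probe sets, 10.7% of those tested, whose control arrays were all above it. Hsp60B and Hsp60D belonged to the 628 of these, 6.42% of those tested, that were above the floor on all can arrays, whereas 211 probe sets, 2.16%, were at or under the floor on all can arrays.

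**Figure D2:**
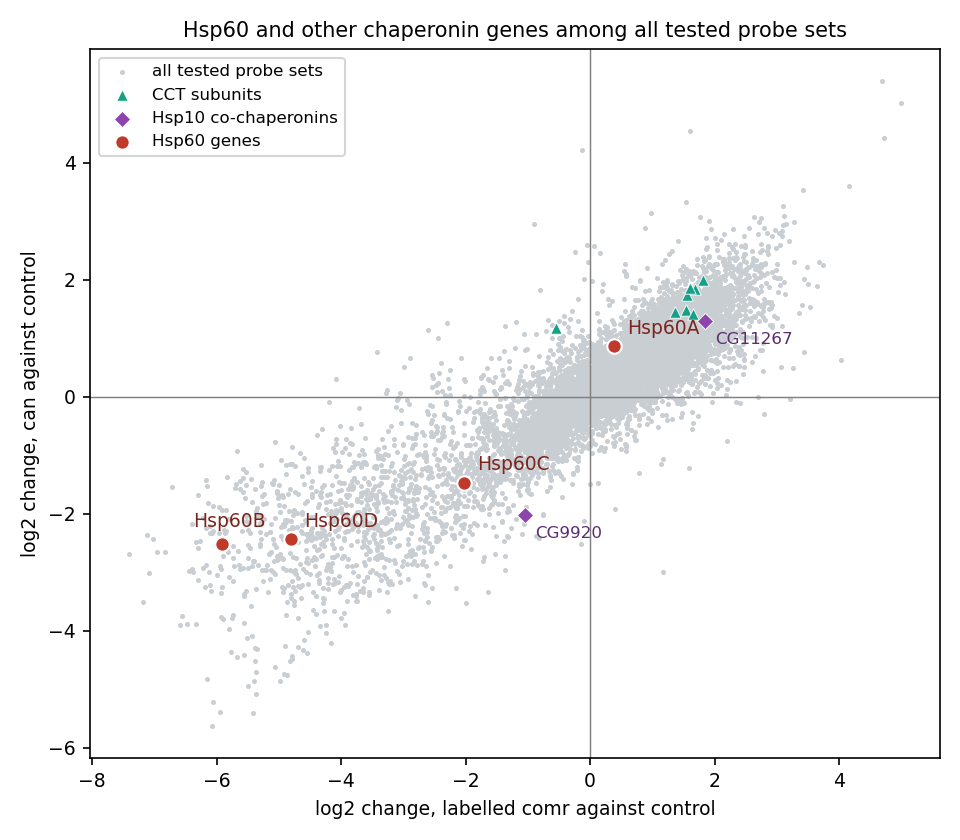
Log2 change of signal plus 16 in testes labelled comr against control (horizontal) and in can testes against control (vertical) for all 9775 tested probe sets (grey), the 4 Hsp60 genes (red circles), the 8 CCT subunits (green triangles) and the 2 Hsp10 genes (purple diamonds). Hsp60B at -5.92 and -2.51 and Hsp60D at -4.80 and -2.44 lie at the left, Hsp60C at -2.02 and -1.47 lies between them and the bulk, and Hsp60A at 0.39 and 0.86 lies in the bulk. The axes share the control arrays, and the horizontal positions of Hsp60B and Hsp60D, under the floor in testes labelled comr, depend on the offset.

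Differences between 2 Hsp60 genes on the same array do not move when all its signals are multiplied by 1 factor, apart from the offset, but quantile normalisation can move them. In can testes the log2 change of Hsp60B minus that of Hsp60A was -3.37 (SE 0.089). For Hsp60B and Hsp60D in testes labelled comr, under the floor on each array, such a difference is set by the offset and gives no size. For Hsp60D minus Hsp60B there, against control and against can testes, the sign also turned at an offset of 1. For Hsp60C minus Hsp60A the 2 differences of changes lay close together, at -2.41 (SE 0.076) in testes labelled comr and -2.33 (SE 0.095) in can testes. For that pair the difference between testes labelled comr and can testes was -0.08 (SE 0.12, exact permutation p = 0.6). The change of Hsp60D minus that of Hsp60B in can testes was 0.07 (SE 0.065, exact permutation p = 0.4), the groups overlapped, and with quantile normalisation it was -0.09. For the other pairs and comparisons among the 18 run, the groups did not overlap and the exact two-sided permutation p was 0.1, the smallest that 3 against 3 arrays can give, or 0.113 after Benjamini-Hochberg adjustment over the 18, so none could pass 0.05.

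Over the 9 arrays, Hsp60B and Hsp60D followed each other most closely of the 6 pairs (Pearson r = 0.995 on the log2 scale), then Hsp60C with Hsp60D (0.965) and with Hsp60B (0.938). Hsp60A correlated negatively with the others, with r of -0.36 to Hsp60B, -0.61 to Hsp60C and -0.44 to Hsp60D. These values describe 9 arrays that fall into 3 genotype groups and share their scaling, with Hsp60B and Hsp60D under the floor on 3 of them.

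**Figure D3:**
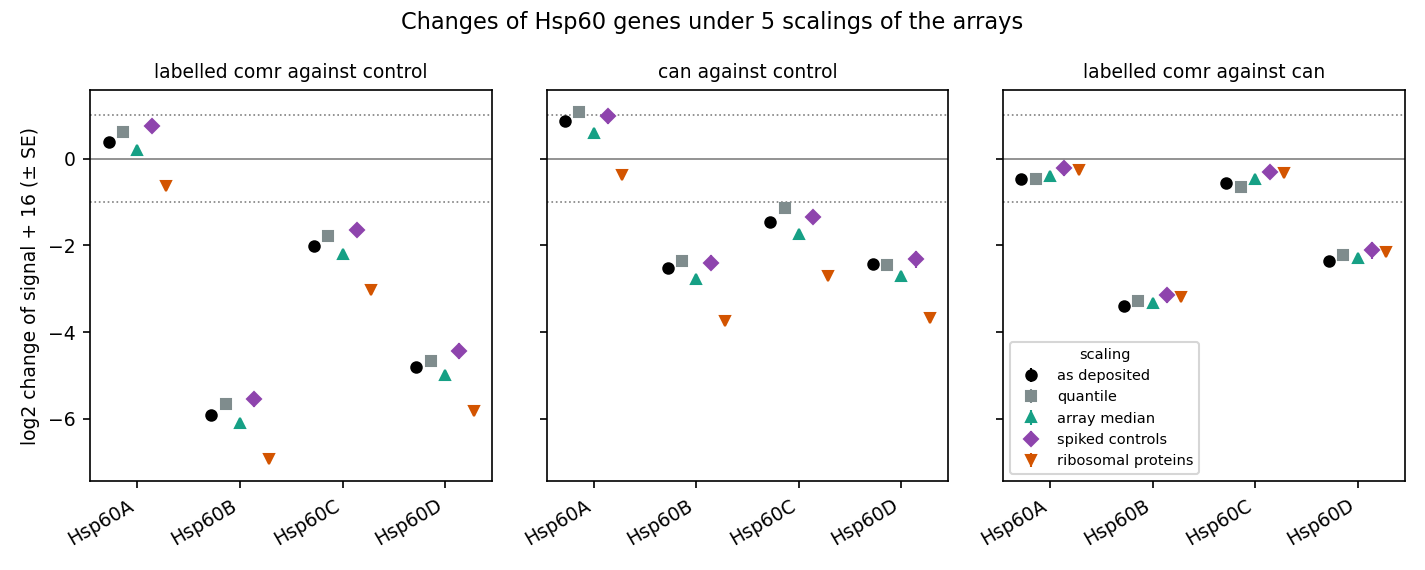
Log2 change of signal plus 16 of each Hsp60 gene with its SE in 3 comparisons, under 5 scalings of the arrays: as deposited, quantile normalised, centred on array medians, on 9 spiked control probe sets, and on 24 ribosomal protein probe sets. Dotted lines mark 2-fold. Hsp60B, Hsp60C and Hsp60D lie below -1 against control under each scaling, while Hsp60A lies above 0 under 4 of them and at -0.62 and -0.37 with ribosomal protein centring.

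The scaling sets the zero against which these changes are read. As deposited, the median log2 change of all tested probe sets was 0.35 in testes labelled comr, 0.29 in can testes and -0.01 between the mutants, and with ribosomal protein centring it was -0.66, -0.94 and 0.21. Of the probe sets called in testes labelled comr, 63.4% were higher as deposited, 12.7% with ribosomal protein centring and 74.6% with centring on spiked controls. In can testes 61.4% were higher as deposited, 2.60% with ribosomal protein centring and 44.6% with array median centring. Between the mutants 30.7% were higher as deposited, 48.9% with ribosomal protein centring and 51.5% with spiked controls. Relative to the median as deposited, the log2 change of Hsp60C in testes labelled comr was -2.37, and the changes in can testes were -2.80 for Hsp60B, -2.73 for Hsp60D and -1.76 for Hsp60C. No rise named below for a chaperone, mitochondrial, individualisation or heat shock gene or a chromosomal neighbour, against control, was called with ribosomal protein centring.

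The arrays were alike within groups, with Pearson r between 0.972 and 0.987 and 57.2% (labelled comr), 62.8% (can) and 59.3% (control) of probe sets above the floor on average. As deposited, neither mutated gene had a lower mean in its own mutant than in control, while with ribosomal protein centring the log2 change was -0.43 for comr in testes labelled comr and -1.05 for can in can testes. The control mean of comr, 17.3, lay under the floor, so the size of the comr change depends on the offset. Whether the probe sets lie in the mutated parts is not known here: comr averaged 33.5 ± 3.04 in testes labelled comr, 58.1 ± 9.89 in can testes and 17.3 ± 5.63 in control, and can averaged 163 ± 13.0, 38.0 ± 9.62 and 31.8 ± 8.89 in the same order. The gene aly, which the source name of the arrays labelled comr gives, averaged 546 ± 16.7 there, 176 ± 11.4 in can testes and 86.3 ± 5.63 in control. Values are SD with n = 3, and the labels were kept.

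Several measures of tissue makeup and RNA moved with the groups, and their part in the Hsp60 changes was not tested. The summed signal of 9 of 10 listed germline markers was 2878.3 to 2921.9 in testes labelled comr, 2319 to 2479.8 in can testes and 4031.4 to 4292 in control. Within that list, 7 genes were called higher and 2 lower in testes labelled comr, and 4 higher and 2 lower in can testes. Over all tested probe sets 28.9% were called higher and 16.7% lower in testes labelled comr, and 20.7% and 13.1% in can testes. The 2 that fell in both, named after their values were seen, were bol, a meiotic translation regulator (log2 change -2.59 in testes labelled comr and -1.35 in can testes), and the testis tubulin gene betaTub85D (-3.35 and -2.69). Their control means, 1060 for bol and 2612.5 for betaTub85D, make up most of the control sum. The lower sums in the mutants thus reflect these 2 genes and not most of the list. The summed signal of 6 of 6 haemocyte markers was 596.5 to 681 in testes labelled comr, 406.3 to 484.9 in can testes and 153.4 to 287.2 in control. NimC1 was at or under the floor in all groups, and Hml and Ppn were in control. Of the 5 tested, 4 were called higher in testes labelled comr and 2 in can testes, and 0 lower in either. Hml averaged 96.1, 18.1 and 12.1 in the same order, with can and control arrays overlapping. Col4a1, also a listed fat body marker, averaged 286, 215 and 111. The summed signal of 7 of 8 somatic cyst and hub markers was 213.8 to 224.3 in testes labelled comr, 263.3 to 265.5 in can testes and 206.8 to 229.2 in control, with tj and upd1 at or under the floor in all groups. In the same order, 3 of 6 ejaculatory duct and bulb markers summed to 315.6 to 415.7, 535.5 to 646.6 and 370.2 to 498.6. For 6 of 9 muscle markers the sums were 1461.1 to 1735.8, 1305.5 to 1530.2 and 1565.6 to 1723.7. For 7 of 7 fat body markers they were 366.3 to 486.8, 404.3 to 478.9 and 247.3 to 467.2. The summed signal of 11 of 13 accessory gland markers was 47.3 to 1729.4, 111.2 to 3589.2 and 608.4 to 4111.7 in the same order of groups. It was high on replicate 1 of the arrays labelled comr and low on the other 2. Hsp60B was under the floor on all 3 of these arrays, so its signals there cannot show whether it moved with this sum. The 3′ to 5′ signal ratio of the GAPDH control probe sets, a measure of RNA integrity, was 5.99 ± 0.635 in testes labelled comr, 5.52 ± 1.33 in can testes and 2.59 ± 0.294 in control (SD, n = 3). The actin ratio was 2.43 ± 0.163, 2.57 ± 0.259 and 2.62 ± 0.0898 in the same order, and the eIF4a ratio 6.76 ± 0.866, 3.83 ± 0.490 and 5.22 ± 0.292, so the 3 ratios did not move together.

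Among the partners of Hsp60, the 2 Hsp10 genes moved in opposite directions. CG11267, the general Hsp10, averaged 856 ± 44.1 in testes labelled comr, 581 ± 73.3 in can testes and 228 ± 25.6 in control (SD, n = 3 each). It rose in both, by log2 1.84 (SE 0.10, adjusted p = 4.86e-09) and 1.29 (SE 0.10, adjusted p = 2.18e-07), and with ribosomal protein centring the changes were 0.84 and 0.06 and not called. CG9920, a second Hsp10-like gene, averaged 1393 ± 68.7 in testes labelled comr, 701 ± 18.5 in can testes and 2906 ± 89.6 in control. It fell in both, with a log2 change of -1.05 (adjusted p = 6.92e-09) for the arrays labelled comr and -2.03 (adjusted p = 9.87e-11) for the can arrays, each with an SE of 0.061. The call in testes labelled comr was lost with quantile normalisation (-0.71) and with spiked controls (-0.69). CG9920 thus had its lowest mean in can testes, whereas Hsp60B, Hsp60C and Hsp60D had theirs in testes labelled comr. The difference of testes labelled comr from can testes was 0.97 for CG9920 (adjusted p = 5.69e-08) and 0.55 for CG11267 (adjusted p = 0.000791), neither reaching 2-fold as deposited. With ribosomal protein, array median or spiked-control centring 1 of the 2 was called higher. Centring moves both alike, so this was CG9920.

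Of 6 tested genes of the mitochondrial Hsp70 system and matrix chaperones, which pull proteins in and pass them to Hsp60, 2 were called higher and 0 lower in testes labelled comr, and 0 were called in can testes, against 28.9% and 20.7% of all tested probe sets called higher. The list median was 0.28 and 0.31, against 0.38 and 0.31 over all tested genes. The 2 were CG7394 (log2 change 1.20, SE 0.10) and blp, the homologue of the import motor subunit Pam16 (1.04, SE 0.088). The call of blp was lost without control replicate 2 (0.98) and with quantile normalisation (0.77). The brightest member in can testes, the Hsp90-type chaperone Trap1, averaged 1025 ± 92.1 there and 956 ± 51.7 in control, a difference inside the spread of the arrays.

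Of 9 tested mitochondrial proteases and prohibitins, 0 were called higher and 1 lower in testes labelled comr, and 1 higher and 2 lower in can testes. Over all tested probe sets 28.9% were called higher and 16.7% lower in testes labelled comr, and 20.7% and 13.1% in can testes, and 1 or 2 of 9 lower is near those shares. The list median was -0.26 and -0.48, against 0.38 and 0.31 over all tested genes. With ribosomal protein centring 5 of the 9 were called lower in testes labelled comr and 7 in can testes. Of all 9775 tested probe sets, 3894 and 4614 were called lower with that centring. ClpX, the unfoldase of the matrix protease ClpP, fell in both: it averaged 164 ± 8.83 in testes labelled comr, 142 ± 5.82 in can testes and 1355 ± 28.2 in control, with log2 changes of -2.93 and -3.12 (SE 0.072 each). YME1L, an inner membrane protease, fell in can testes (-1.06, SE 0.074), a call lost with quantile normalisation (-0.93) and spiked controls (-0.94). Lon, a matrix protease, rose there (1.06, SE 0.15), a call lost without control replicate 2 (0.92) and with quantile normalisation (0.91), and its change was -0.17 with ribosomal protein centring.

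The cytosolic counterpart of Hsp60, the 8-subunit chaperonin CCT that folds actin and tubulin, mostly rose in the values as deposited, with no rise called under ribosomal protein centring. In testes labelled comr 7 of 8 CCT genes were called higher and 0 lower, and in can testes 8 of 8 were called higher, against 28.9% and 20.7% of all tested probe sets. The list median was 1.57 and 1.61, and 0 were called higher in either with ribosomal protein centring, which gave list medians of 0.57 and 0.38. CCT5 rose by 1.81 and 1.99 (SE 0.084) and CCT1 by 1.68 and 1.84 (SE 0.10), CCT6 by 1.65 and 1.42 (SE 0.072), and CCT8 by 1.60 and 1.85 (SE 0.088). CCT2, named after its values were seen, was the exception in testes labelled comr. It averaged 300 ± 24.4 in testes labelled comr, 1028 ± 69.0 in can testes and 444 ± 5.20 in control. It was the CCT gene called between the mutants (log2 difference of testes labelled comr from can testes -1.72, SE 0.078, adjusted p = 2.67e-09). Of the 6 prefoldin genes, which hand proteins to CCT, 4 were called higher and 0 lower in testes labelled comr and 3 higher and 0 lower in can testes, with list medians of 1.28 and 0.92, against the same 28.9% and 20.7% of all tested probe sets called higher. They included Pfdn2 (1.73 and 1.37), Pfdn1 (1.36 and 1.19) and mgr (1.31 and 1.13), and 0 were called higher with ribosomal protein centring. In can testes Pfdn1 (0.93) and mgr (0.86) were not called with array median centring.

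**Figure D4:**
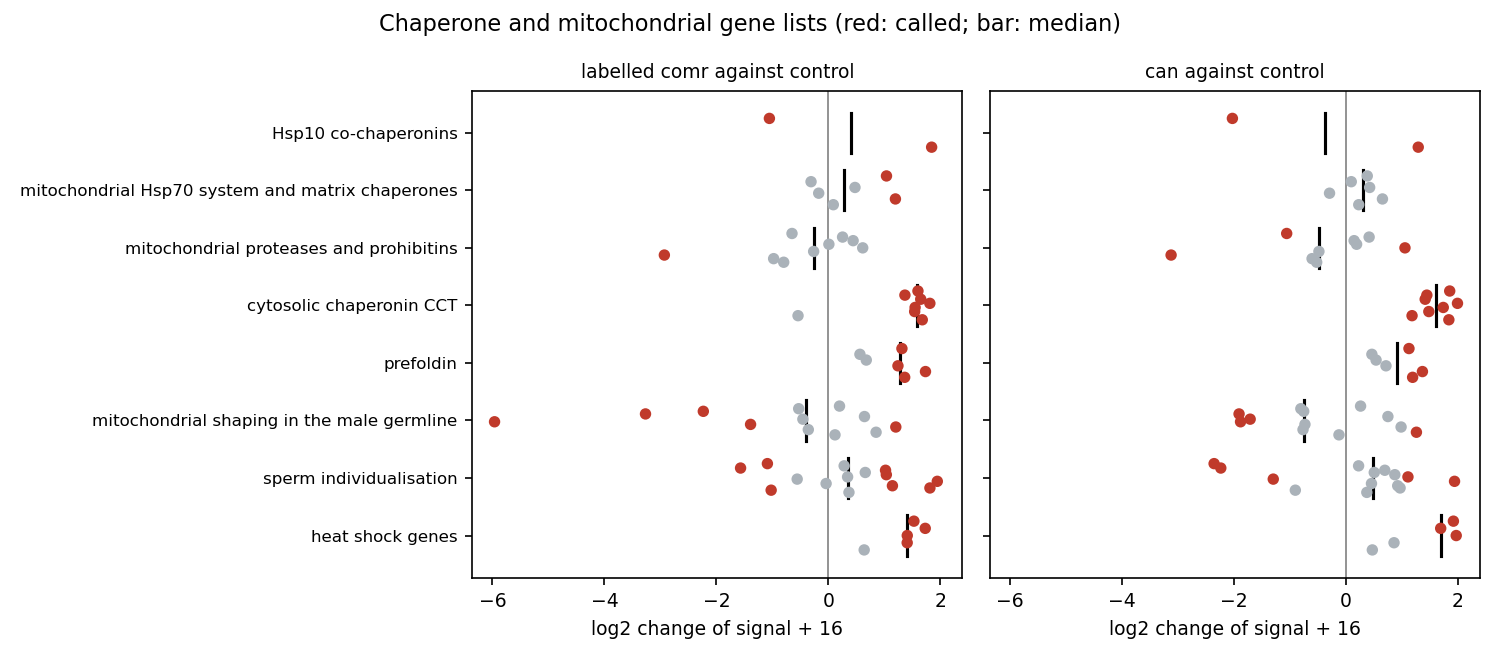
Log2 change of signal plus 16 of each tested gene of 8 lists in testes labelled comr (left panel) and can testes (right panel) against control. Red points are called genes, grey points are not, and black bars are list medians. The CCT genes lie together at the right, with medians of 1.57 and 1.61, while Hsp10, the proteases, the mitochondrial shaping genes and the individualisation genes spread to both sides of 0.

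Of 12 tested genes that shape mitochondria in the male germline, 1 was called higher and 4 lower in testes labelled comr, and 1 higher and 3 lower in can testes, with list medians of -0.41 and -0.74. Of all tested probe sets 16.7% and 13.1% were called lower and 28.9% and 20.7% higher, and the median over all tested genes was 0.38 and 0.31. Porin2, a paralogue of the outer membrane channel porin, was, like Hsp60B, under the floor on each array labelled comr. It averaged 19.3 ± 0.458 in testes labelled comr, 582 ± 41.8 in can testes and 2184 ± 103 in control (SD, n = 3 each). It was at least 108-fold lower in testes labelled comr than in control, and its log2 change in can testes was -1.88 (SE 0.076). The general gene porin, named after its values were seen, averaged 928, 971 and 807 in the same order and was not called. The mitofusin gene fzo, needed to fuse spermatid mitochondria, was at least 7.35-fold lower in testes labelled comr and changed by -1.91 in can testes (SE 0.16). The spermatid mitochondrial gene knon was at least 4.92-fold lower in testes labelled comr. Taz, which remodels cardiolipin, fell in can testes (log2 change -1.71, SE 0.093).

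Hsp60B acts in sperm individualisation, and 14 of 21 listed genes of that step were tested. In testes labelled comr 5 were called higher and 3 lower, and in can testes 2 higher and 3 lower, with medians of 0.36 and 0.48. These counts are near the shares of all tested probe sets, of which 28.9% were called higher and 16.7% lower in testes labelled comr and 20.7% and 13.1% in can testes. The caspase gene Dronc rose in both (1.95 and 1.94, SE 0.14) and the gene of its activator, Dark, rose in testes labelled comr (1.81, SE 0.19). The control mean of Dark, 20.27, was just under the floor, so the size of that rise depends on the offset. The F-box gene ntc fell in both (-1.57 and -2.23, SE 0.10), as did soti, an inhibitor of the ubiquitin ligase of this step (-1.09 and -2.35, SE 0.062). In testes labelled comr, 1 gene of the list was called lower with quantile normalisation and 1 with spiked controls. The call of soti there was thus lost under both. With ribosomal protein centring 0 genes of this list were called higher and 5 lower in each mutant.

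Hsp60 genes bear the heat shock name, and 5 of 15 listed heat shock genes were tested. Of these, 4 were called higher and 0 lower in testes labelled comr and 3 higher and 0 lower in can testes, with medians of 1.41 and 1.69, where 28.9% and 20.7% of all tested probe sets were called higher. The small heat shock gene Hsp27 rose by 1.73 and 1.69 (SE 0.068), the Hsp70-family gene Hsp68 by 1.53 and 1.92 (SE 0.073), and the small heat shock gene Hsp26 by 1.41 and 1.97 (SE 0.067). With ribosomal protein centring 0 were called in either direction.

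The genes nearest to each Hsp60 gene in the plane of the 2 changes against control gave its company among 8218 other tested genes. Where a gene is under the floor in a group, its place in that plane depends on the offset, so the distances of such genes measure no likeness in level. Hsp60A had 921 genes within a distance of 0.5 on the log2 scale and Hsp60C 135. Nearest to Hsp60B were CG2291, ttm2, sinah and CG15286, which like Hsp60B all had means under the floor in testes labelled comr. The gene ttm2 is a testis homologue of the mitochondrial import subunit Tim50 and averaged 3.53, 176.2 and 1111 in testes labelled comr, can testes and control. The sina-family gene sinah averaged 9.53, 268 and 1600 in the same order. Nearest to Hsp60D were Recs1, CG6661, CG4286 and CG13442, of which Recs1, CG6661 and CG13442 also had means under the floor in testes labelled comr. CG4286, with averages of 34.7, 250.4 and 1386, differed from Hsp60D in staying above the floor in testes labelled comr. Nearest to Hsp60C were glob3, a globin gene, Oatp30B, an organic anion transporter gene, CG32987 and CG12780. Of these Oatp30B, at a distance of 0.06, averaged 104.5, 154 and 468 in the same order. The other 3 had means under the floor in testes labelled comr (1.97 for glob3, 8.73 for CG32987 and 1.17 for CG12780), and glob3 and CG12780 also in can testes (9.53 and 8.40), so their nearness to Hsp60C comes from the offset. Nearest to Hsp60A were CG32537, the RNA-binding protein gene Atx2, PIG-U and insv, at 0.01 to 0.04. Atx2 averaged 287, 392 and 212, and CG32537, with a control mean of 16.3, was under the floor there. Pearson r with their Hsp60 gene over the 9 arrays was 0.82 to 0.95 for the neighbours of Hsp60A and 0.98 to 0.999 for the others, which follows in part from how they were picked.

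Genes beside the Hsp60 genes on the chromosome gave mixed values. The nearest tested gene on either side was read from the order in a gene table. Next to Hsp60D, with 0 genes between, Hacd2, a gene of fatty acid elongation, rose in both mutants (1.41 and 1.60, SE 0.10), and on the other side CG42810 had changes under 2-fold (-0.87 and -0.83). Next to Hsp60C, with 0 genes between, CG12511 fell: it averaged 1.97 ± 0.611 in testes labelled comr, 71.0 ± 1.21 in can testes and 294 ± 38.5 in control, at least 14.4-fold lower in testes labelled comr. On the other side of Hsp60C, DIP-theta averaged 68.4, 89.1 and 72.9 and was not called. Beside Hsp60B, at 5 genes, CG13947 fell in both (-3.77 and -3.49, SE 0.15). On its other side, at 15 genes, the hormone gene Ptth was at least 2.73-fold lower in each mutant than in control. Beside Hsp60A, CG42249 was not called, and the proteasome ATPase gene Rpt3 rose in testes labelled comr (1.08, SE 0.11), a call lost without replicate 1 of the arrays labelled comr (0.996) and with quantile normalisation (0.82).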

How the data were processed

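Expression was measured on 9 Affymetrix arrays. Each deposited value is a probe set's intensity (linear scale), which the authors obtained with GCOS 1.4 (per the submitters' processing notes). No label or header gives an algorithm, background step or filter. Each array's mean without the lowest and highest 2% was 100.011 to 100.015, so the arrays share 1 scale, which was kept. Symbols came from the array annotation and a current gene table: 12443 probe sets carried 1 symbol, 327 several and 1196 none. The 44 control probe sets and the 30% with the lowest mean (under 15.1) were left out, leaving 9775 probe sets of 8222 genes. Where a gene had several probe sets, the one with the highest mean was used in lists.

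The limma package (3.58.1, under R 4.3.3) was fitted to log2 of signal plus 16 with a mean for each genotype over 9 arrays, moderated variances following an intensity trend, and Benjamini-Hochberg adjustment over all tested probe sets. Within-array differences were tested with exact two-sided permutation tests in scipy 1.17.1. The procedure was also tested on simulated data, in which few probe sets changed and rises and falls were equal in number. Far more were called on the arrays here, so that run does not check these calls. Precision is limited by having 3 arrays in a group. Genes named were the Hsp60 genes, comr, can and aly, up to 3 called members with the largest change per list and comparison with control (or the brightest where none was called), the 4 nearest genes in the plane of changes, and chromosomal neighbours. The members, lists and tests were chosen with earlier results of these data known. Alternatives changed the offset, filter, scaling, intensity trend, arrays in the fit, replicate block and fold threshold, or left out an array. Promoter, probe and protein sequences were not used here, so reads of one Hsp60 transcript by the probe set of another were not tested.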

Additional observations from a re-analysis of the deposited data

How the results depend on the processing

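Of 228 values of the Hsp60 genes under alternatives, 220 kept direction and side of the threshold, and no call of Hsp60B or Hsp60D changed. Hsp60A in testes labelled comr was 0.39 and passed with no minimum fold, and -0.62 with ribosomal protein centring; in can testes it was 0.86 and passed with no minimum fold, 1.07 with quantile normalisation and -0.37 with ribosomal protein centring; between testes labelled comr and can testes it passed at -0.47 with no minimum fold. Hsp60C at -1.47 in can testes missed a 4-fold minimum, and at -0.55 between the mutants it passed with no minimum fold. These threshold changes are by construction, and the cause of the others was not tested. Leaving out each array in turn changed no call of the 4 genes in 72 values: Hsp60A ran over 0.27 to 0.47 (labelled comr against control), 0.79 to 0.91 (can against control) and -0.59 to -0.39 (labelled comr against can), and Hsp60C over -2.07 to -1.97, -1.53 to -1.41 and -0.61 to -0.49 in the same order. The Hsp60D change minus the Hsp60B change was -0.15, -0.067 and -0.084 in these comparisons at an offset of 1, and -0.091 in can testes with quantile normalisation. The Hsp60C change minus the Hsp60A change between the mutants ran over -0.15 to 0.0079 with single arrays left out.

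Whether replicate numbers pair the arrays was not settled. Deviations of same-numbered arrays correlated between -0.14 and 0.19, and 4 of 9 pairs were over 0.1. Those of differently numbered arrays correlated between -0.26 and 0.19, and 4 of 18 pairs were over 0.1. With the replicate block the Hsp60C change was -2.02 in testes labelled comr and -1.47 in can testes, no Hsp60 call changed, and the probe sets called higher and lower were 2826 and 1635, 2028 and 1277, and 446 and 1004 in the 3 comparisons.

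Other named genes turned sign with ribosomal protein centring, in testes labelled comr and can testes: Atx2 -0.59 and -0.39, CG32537 -0.63 and -0.37, CG42249 -0.88 and -0.69, PIG-U -0.62 and -0.34, insv -0.58 and -0.36, and comr -0.43 and -0.070. In can testes alone they were DIP-theta -0.98, Lon -0.17, Pfdn1 -0.037, Rpt3 -0.34, Trap1 -1.13, aly -0.32, can -1.05 and mgr -0.10. With array median centring CG42249 in testes labelled comr was -0.053, and in can testes DIP-theta was -0.011, Trap1 -0.17 and can -0.086. With quantile normalisation DIP-theta was -0.018 and can -0.0090 in can testes. DIP-theta in testes labelled comr was 0.30 with spiked controls. With single arrays left out, CG42249 ran over -0.067 to 0.37 and DIP-theta over -0.18 to 0.050 in testes labelled comr.

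Probe sets called higher in testes labelled comr numbered 2826, and 4940 with no minimum fold, 588 at 4-fold, 1492 at an offset of 64 and 568 with ribosomal protein centring. Those lower numbered 1634, and 2820, 1069 and, with ribosomal protein centring, 3894. In can testes 2028 were higher, and 4616 with no minimum fold, 225 at 4-fold, 946 at an offset of 64, 123 with ribosomal protein centring and 1261 with array medians. There 1276 were lower, and 2332, 584 and, with ribosomal protein centring, 4614. Between the mutants 444 were higher, and 2453 with no minimum fold, 28 at 4-fold, 703 at an offset of 1, 150 at an offset of 64, 794 with ribosomal protein centring and 866 with spiked controls; 1003 were lower, and 2357 with no minimum fold, 439 at 4-fold and 503 at an offset of 64. With single arrays left out, the counts higher and lower ran over 2813 to 2859 and 1626 to 1667 in testes labelled comr, 2006 to 2067 and 1279 to 1292 in can testes, and 443 to 474 and 999 to 1012 between the mutants. Of 1849 values of other named genes, 29 turned sign, 104 lost a call and 28 gained one.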

Other observations

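A further probe set carries 2 gene symbols, 1 of them Hsp60B, and was not a member under the rule. It averaged 37.7 ± 1.86 in testes labelled comr, 61.2 ± 8.61 in can testes and 102.5 ± 1.68 in control (SD, n = 3 each), above the floor on every array. Its log2 change was -1.14 in testes labelled comr (SE 0.11, adjusted p = 1.03e-06, called) and -0.62 in can testes (SE 0.11, adjusted p = 0.000289, under 2-fold). Which of the 2 genes it reads was not tested.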
